A study of Mus musculus with 3 samples.

Results

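Cytotoxic T cells that carry granzyme K were examined in the inflamed sciatic nerve. They were CD8 T cells with at least 1 UMI (unique molecular identifier, 1 captured transcript) of Gzmk and no UMI of Havcr2, which encodes the inhibitory receptor TIM-3. Among 13637 cells that passed the limits on genes and mitochondrial UMIs, 902 met this definition, and they are called Gzmk+Havcr2- CD8 T cells here. A cell was taken as a CD8 T cell if it had at least 1 UMI over Cd3d, Cd3e and Cd3g, at least 1 over Cd8a and Cd8b1, none of Cd4 or of the B cell gene Cd79a, at most 1 over the macrophage genes C1qa, C1qb and C1qc, and none of the cell division genes Mki67 and Top2a. The cells were thus selected on their measured UMIs of these genes, whose levels are given as a description only.

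The cells came from neuropathic NOD.AireGW/+ mice. These carry 1 copy of a partial loss-of-function allele of Aire, a gene needed for central tolerance, on the nonobese diabetic (NOD) background, and they develop spontaneous autoimmune inflammation of peripheral nerves. Immune cells (CD45+) were isolated from the sciatic nerve and sequenced with the 10x Genomics droplet method in 3 libraries. There was 1 mouse in library 1 and 1 in library 2. The cells of library 3 were a mixture from 2 mice and counted as 1 sample. The age of the mice is not given in the sources used here, no control group was analysed, and every comparison was between cell groups of the same libraries.

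Granzymes are serine proteases stored in the granules of cytotoxic lymphocytes. Granzymes A and B enter target cells with the help of perforin, and granzyme K is known as a trypsin-like member found in effector memory CD8 T cells of inflamed tissues. CD8 T cells that meet antigen for a long time gain inhibitory receptors such as TIM-3, PD-1 and LAG-3, while less differentiated cells keep the transcription factor TCF-1, encoded by Tcf7, and receptors for recirculation.

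Gzmk lies on mouse chromosome 13 at chr13:113171608-113225908 on the minus strand, and Gzma at chr13:113093825-113100981, also on the minus strand (GENCODE, GRCm38). The annotated genes are 70626 bases apart. Klrc1, the gene of the NKG2A subunit of an inhibitory receptor and 1 of 3 genes taken as markers of these cells, lies at chr6:129666015-129678973. The 250 bases before the RefSeq start of each (GRCm38.p6) are shown because Gzma and Klrc1 were higher in the Gzmk-positive cells. They span chr13:113180966-113181215 for Gzmk, chr13:113100982-113101231 for Gzma and chr6:129678974-129679223 for Klrc1, each on the minus strand and printed 5′ to 3′ along the gene. Capitals mark matches to TGTGGT, a RUNX motif, or to TCACACC, a T-box half-site, on either strand.
Gzmk: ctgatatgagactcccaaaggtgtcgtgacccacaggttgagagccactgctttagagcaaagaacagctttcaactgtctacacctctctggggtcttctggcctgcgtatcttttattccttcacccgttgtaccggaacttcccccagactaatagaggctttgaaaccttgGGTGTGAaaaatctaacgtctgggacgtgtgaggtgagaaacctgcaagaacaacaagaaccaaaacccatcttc
Gzma: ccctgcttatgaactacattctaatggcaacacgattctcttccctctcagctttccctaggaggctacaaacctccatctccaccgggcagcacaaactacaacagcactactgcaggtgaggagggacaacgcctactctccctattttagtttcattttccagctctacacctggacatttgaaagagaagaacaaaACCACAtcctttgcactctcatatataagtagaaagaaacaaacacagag
Klrc1: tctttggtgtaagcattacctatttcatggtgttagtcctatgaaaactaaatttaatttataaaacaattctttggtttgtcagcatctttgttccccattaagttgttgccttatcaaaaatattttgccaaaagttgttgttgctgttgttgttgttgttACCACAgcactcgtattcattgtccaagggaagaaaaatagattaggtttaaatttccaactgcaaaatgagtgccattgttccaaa

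The Gzmk window held 1 T-box half-site, which began 75 bases before the start, and no RUNX match. The Gzma and Klrc1 windows held 1 RUNX match each, 50 and 87 bases before the start, and no T-box half-site. Other genes were searched too. The windows of Eomes, Hopx and Fasl, also higher in the Gzmk-positive cells, held no match to either motif, nor did that of Tcf7. Those of Prf1 and Ccl3 held 1 RUNX match each and no T-box half-site. Hopx and Tcf7 had 2 entries each, and the first was used. Among 27025 promoters of this length, 14.2% held the RUNX letters and 3.31% held the T-box letters. The GENCODE span of Gzmk runs past the RefSeq start, so this window is inside the longer gene model.

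The libraries held 3926, 8311 and 1533 cells with 22983991, 55120460 and 3399733 UMIs. Gzmk+Havcr2- CD8 T cells numbered 368, 411 and 123 in libraries 1 to 3. Their median UMI counts were 4082, 3186 and 2167 per cell, so library 3 was both the shallowest and the smallest. Between 7 and 36 cell barcodes were shared by 2 libraries, and in no case was the barcode that of a Gzmk+Havcr2- CD8 T cell in both.

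Gzmk+Havcr2- cells were a large share of the CD8 T cells that were not dividing. Library 1 had 44.9% of them (exact 95% interval 41.4 to 48.4), library 2 had 47.5% (44.1 to 50.8) and the share was 50.4% (44.0 to 56.8) for library 3, with a mean of 47.6% ± 2.77 (SD, n = 3 libraries). As a share of all cells they were 9.56%, 4.98% and 8.02%. After each cell was thinned to 1000 UMIs before the definition was applied, their share of the CD8 T cells was 34.8%, 33.7% and 38.1%. The intervals cover counting error only.

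**Figure D1:**
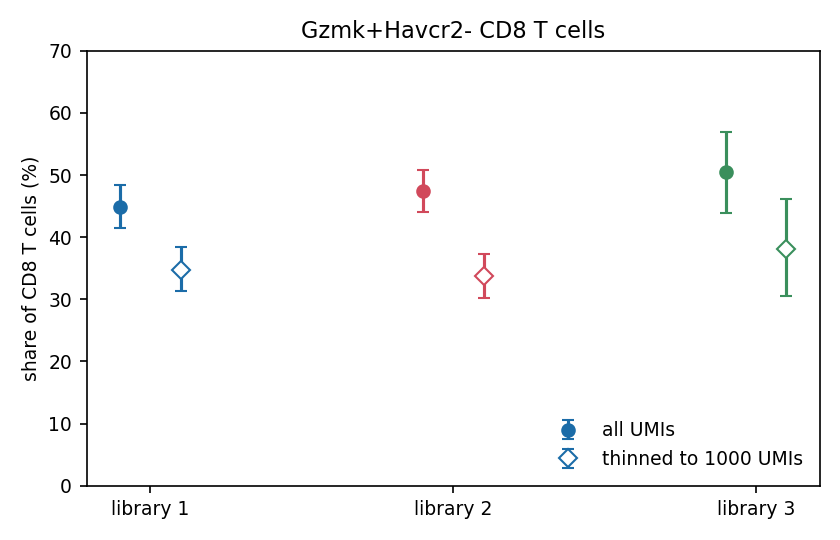
Share of Gzmk+Havcr2- cells among the CD8 T cells of each library, in percent, with exact 95% binomial intervals, from all UMIs (filled circles) and after thinning to 1000 UMIs per cell (open diamonds). The 3 libraries lie between 44.9% and 50.4% from all UMIs and between 33.7% and 38.1% after thinning.

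The threshold on Gzmk was low. The median cell had 3, 3 and 2 Gzmk UMIs in libraries 1 to 3, and 23.6%, 28.2% and 34.1% of the cells had exactly 1. On the side of Havcr2, 63 of 156, 40 of 79 and 4 of 9 Gzmk+Havcr2+ CD8 T cells had exactly 1 Havcr2 UMI, so many of them would have been included with 1 transcript fewer. Of all Gzmk UMIs of the libraries, the Gzmk+Havcr2- CD8 T cells held 29.3%, 30.3% and 48.2%. Cells with a Mki67 or Top2a UMI held another 31.3%, 28.3% and 10.7%, T cells with neither a Cd4 nor a Cd8 UMI held 6.13%, 8.19% and 29.1%, and B cells held at most 0.325%.

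Cells with 5 or more Gzmk UMIs had more Hopx and less Gzmb than those with exactly 1 in each library. Hopx was 256 against 155 CPM (UMIs per 1000000 of the summed cells), 271 against 176 and 180 against 173 across libraries 1 to 3. Gzmb was 357 against 539 CPM, 699.6 against 903 and 0 against 644, the 0 in a class of 16 cells. The cells between, with 2 to 4 Gzmk UMIs, numbered 145, 194 and 65. Their Gzmb was 254, 479 and 1265 CPM, so Gzmb did not fall stepwise with Gzmk in any library. Their Hopx was 186, 239 and 199 CPM, which was not stepwise in library 3. The level of Tcf7 was 85.6 CPM with 1 Gzmk UMI and 138 with 5 or more for library 1, and 124 and 62.9 for library 2. Ccl5 was 11786 and 20616 CPM in the first and 30394 and 38929 in the second, and stood at 30506 and 30323 CPM in library 3. The cells with exactly 1 Gzmk UMI were also shallower, with medians of 2688, 2940.5 and 1848.5 UMIs against 4644.5, 3560 and 2220.5.

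Klrc1, Ccl5 and Hopx were chosen as markers with these data known, and their shares are set beside those of B cells only. This does not tell the cells from other T cells, whose levels of these genes are given below. At 1000 UMIs per cell, Klrc1 was found in 43.6%, 28.0% and 33.6% of Gzmk+Havcr2- CD8 T cells of libraries 1 to 3, against 1.36% ± 2.35 (SD, n = 3 libraries) of B cells, which should lack it. Ccl5, a chemokine for T cells and monocytes, was found in 95.9% ± 2.07 (SD, n = 3 libraries) against 16.6% ± 9.43 of B cells. Hopx, a homeodomain protein of effector lymphocytes, was found in 20.7% ± 1.49 against 2.18% ± 0.728. Without thinning, Klrc1 was found in 57.8% ± 11.1, Ccl5 in 96.3% ± 1.30 and Hopx in 38.3% ± 7.17, beside 1.98% ± 3.42, 37.0% ± 27.1 and 5.37% ± 1.00 of B cells. All 3 genes were above the B cell share in each library. The median B cell had 3948.5, 3142 and 1710 UMIs. Left out as under 1000 UMIs were 42, 4 and 7 Gzmk+Havcr2- CD8 T cells and 15, 0 and 8 B cells.

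Other granule genes were less evenly distributed among the cells. The general granule gene Nkg7 was found in 88.3% ± 1.45 of them at 1000 UMIs, Gzmb in 21.5% ± 2.70, Gzma in 12.2% ± 4.37 and Prf1, which encodes perforin, in 8.88% ± 5.33. Without thinning the shares were 95.7% ± 2.16 for Nkg7, 31.9% ± 2.59 for Gzmb, 18.1% ± 6.67 for Gzma and 21.4% ± 13.6 for Prf1. The unthinned B cell shares were 6.95% ± 10.9, 1.82% ± 2.18, 0.786% ± 0.687 and 3.39% ± 2.37. Gzma transcripts were held by few cells: the 5 cells with most held 38.1%, 32.5% and 68.2% of the Gzma UMIs of libraries 1 to 3. For Gzmb these shares were 34.1%, 36.7% and 48.2%. The chemokine genes Ccl3 (47.4%, 53.1% and 94.1%, the last of 17 UMIs) and Ccl4 (44.2%, 25.2% and 49.2%) were also held by few cells. The 5 cells with most Klrc1 held 6.56%, 8.21% and 22.0% of the Klrc1 UMIs.

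Several inhibitory receptor genes other than Havcr2 were common, and others were not. In libraries 1 and 2, Cd160 (44.5 and 53.2 CPM), Cd101 (22.5 and 15.1) and Cd244a (15.6 and 18.0) were far below Pdcd1 (548 and 500). At 1000 UMIs, Tigit was found in 39.6% ± 13.0 of the cells, Pdcd1, the gene of PD-1, in 34.5% ± 4.37 and Lag3 in 23.0% ± 5.63, with B cells at 1.36% ± 0.00683, 0.392% ± 0.464 and 1.09% ± 0.474. Without thinning these shares were 69.6% ± 8.79, 57.4% ± 4.85 and 43.9% ± 13.7. Tcf7 was found in 9.07% ± 1.98 of the cells and Il7r, the receptor of the survival cytokine IL-7, in 14.1% ± 3.78, and without thinning in 22.2% ± 9.26 and 26.2% ± 9.15.

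Within the Gzmk+Havcr2- cells, Tcf7 and Gzmb were seldom found together. At 1000 UMIs, Gzmb was found in 5.41%, 12.1% and 0% of the cells with Tcf7, which numbered 37, 33 and 9, and in 20.1%, 23.8% and 25.2% of those without. The third value, 0 of 9 cells, allows a share of up to 33.3%. Gzma and Gzmb went together: Gzmb was found in 40.0%, 45.1% and 52.6% of the cells with Gzma, which numbered 25, 51 and 19, and in 16.6%, 19.7% and 17.5% of those without. Cxcr6, a chemokine receptor of tissue-resident T cells, was found in 53.6%, 41.3% and 19.5% of cells with Pdcd1 and in 27.4%, 17.8% and 14.7% of cells without. These are descriptions of cells that share libraries, with no test.

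To learn what accompanied Gzmk, the 902 cells were compared with 706 CD8 T cells that had neither Gzmk nor Havcr2 (Gzmk-Havcr2- CD8 T cells; 241, 357 and 108 in libraries 1 to 3). These were shallower, with medians of 3317, 3150 and 1865 UMIs against 4082, 3186 and 2167, so Gzmk could be missed in some of them. Gzma, Eomes, Fasl, Ccl5 and Ccl4 were higher in the cells with Gzmk. Lower were 5 of 14 genes of the naive, memory and egress list, the integrin genes Itgae and Itga1, all 4 NK cell markers tested and the gamma delta T cell gene Trdc. UMIs were summed per library and cell group and fitted with edgeR with the library as a block, and a gene was called at a Benjamini-Hochberg adjusted p under 0.05. Of 7341 genes tested, 177 were called (2.41%), 53 higher in Gzmk+Havcr2- cells (0.722%) and 124 lower (1.69%). Without the library as a block 2 genes were called, both lower. The p-values measure how far differences between cell groups varied from library to library, after the block, estimated over all cell groups of the fit. There were 3 libraries, 1 of them a pool.

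Gzma had the largest rise of the genes named. Its level was 146, 471 and 1088 CPM in Gzmk+Havcr2- cells of libraries 1 to 3 and 21.6, 35.9 and 104 CPM in Gzmk-Havcr2- cells. The groups did not overlap, which held for 6.96% of all genes tested, and the log2 difference was 3.35 ± 0.35 (SE; adjusted p = 5.4e-07, edgeR). The Gzma level in library 3 rested largely on the 5 cells with most Gzma UMIs, mentioned above. Eomes, a T-box transcription factor of effector and memory CD8 T cells, was 131, 98.5 and 91.3 CPM against 52.7, 35.9 and 49.3, a log2 difference of 1.32 ± 0.22 (adjusted p = 0.000578). Gzmb, at 329, 710 and 1058 CPM against 337, 832 and 434, was not called (log2 difference 0.25 ± 0.21, adjusted p = 0.861). When cells with a UMI of Foxp3, Trdc or Ncr1 were left out of both groups, Gzmb was called at 1.18 (adjusted p = 0.00704).

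Other genes rose together with Gzma in every library. Gpr183, an oxysterol receptor that guides lymphocyte movement, was 247, 193 and 266 CPM against 109, 97.1 and 123 (log2 difference 1.10 ± 0.18, adjusted p = 0.000574). Sh2d1a, the adaptor SAP of the SLAM receptors, was 234, 321 and 274 CPM against 120, 126 and 187 (1.04 ± 0.16, adjusted p = 0.000176). Rpa2, a subunit of the single-strand DNA binding protein RPA, rose by 1.09 ± 0.18, Wdr95 by 1.25 ± 0.22 and the immediate early gene Ier3 by 1.06 ± 0.23. Among the interferon response genes 2 of 13 tested were higher and none was lower: Ifit3 by 1.18 ± 0.23 and Ifit1 by 1.14 ± 0.28. Without library 2 the calls of Sh2d1a (adjusted p = 0.156), Ier3 (0.0987), Ifit3 (0.0994) and Ifit1 (0.0905) were lost. Without library 1 that of Rpa2 was lost (0.105), and without library 3 that of Ifit1 (0.173).

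Of 13 granule and cytotoxic genes tested, 2 were higher, Gzma and the death ligand gene Fasl, and none was lower, with a median log2 difference of 0.21 beside -0.007 over all genes tested. Fasl was 290, 250 and 293 CPM against 133, 171 and 178 (log2 difference 0.79 ± 0.16, adjusted p = 0.00436, and 0.133 without library 1). Among 16 chemokine, chemokine receptor and retention genes, 3 were higher, among them the chemokine genes Ccl5 and Ccl4, and 2 were lower. Ccl5 was 16513, 38268 and 42114 CPM against 6595, 24115 and 28998 (0.82 ± 0.14, adjusted p = 0.000627), and within each library it was higher in the Gzmk+Havcr2- cells. The calls of Ccl5 were lost without library 1 (0.0589) and without library 2 (0.209), and that of Ccl4 (0.86 ± 0.24) without library 3 (0.234). Without library 2 the log2 difference of Ccl4 was 1.55. Of 15 inhibitory receptor and exhaustion genes tested, none was higher and 2 were lower, Cd244a and Nrp1, with a median log2 difference of 0.04. The call of Nrp1 was lost without library 1 (adjusted p = 0.515) or library 2 (0.66).

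The markers Klrc1 and Hopx were higher in each library too. Klrc1 was 643, 421 and 708 CPM against 276, 233 and 626, a log2 difference of 0.80 ± 0.17 (adjusted p = 0.00539) that was smallest in library 3. Its call was lost without library 1 (adjusted p = 0.0714) and without library 2 (0.234). Hopx was 195, 252 and 221 CPM against 106, 149 and 123 (0.82 ± 0.15, adjusted p = 0.00167, and 0.0539 without library 2). Both were markers chosen with these data known, so this is no independent support for the label.

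Genes of recirculating and resting T cells were lower in the Gzmk+Havcr2- cells. Of 14 genes tested in the naive, memory and egress list, 5 were lower and none higher, with a median log2 difference of -0.54. Ccr7, a homing receptor for lymph nodes, was 145, 154 and 206 CPM against 367, 260 and 533 (log2 difference -1.12 ± 0.15, adjusted p = 2.95e-05), with no overlap, which held for 6.96% of all genes tested. S1pr1, the egress receptor, fell by 0.84 ± 0.20, Il7r by 0.78 ± 0.17 and Klf2, a transcription factor of resting T cells, by 0.62 ± 0.14. Tcf7 was 107, 99.2 and 72.3 CPM against 134, 80.0 and 104 and was not called (-0.09 ± 0.19, adjusted p = 0.977). Of these calls, those of Il7r (adjusted p = 0.0896) and Klf2 (0.426) were lost without library 2, and those of S1pr1 (0.109) and Klf2 (0.177) without library 3. Ccr7 was called without any 1 of them.

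Integrin genes of tissue-resident T cells were lower as well. Itgae, which encodes CD103 and binds E-cadherin, was 37.6, 45.3 and 11.4 CPM against 229, 211 and 49.3, a log2 difference of -2.41 ± 0.26 (adjusted p = 1.09e-06). Itga1, which encodes the collagen receptor CD49a, was 31.2, 38.1 and 15.2 CPM against 76.2, 68.5 and 39.5 (-1.08 ± 0.21, adjusted p = 0.00244). The groups did not overlap for either gene, which held for 6.96% of all genes tested. Cd69 and Cxcr6, which also go with residence in tissue, were not called (log2 differences of -0.41 and 0.15, adjusted p = 0.467 and 0.914). The call of Itga1 was lost without library 1 (adjusted p = 0.134).

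The Gzmk-Havcr2- cells also carried more transcripts of the NK cell marker list. All 4 NK cell markers tested were lower in the Gzmk+Havcr2- cells, among them Tyrobp and Fcer1g, adaptors of activating receptors. Tyrobp was 146, 121 and 22.8 CPM against 748, 389 and 187 (log2 difference -2.17 ± 0.28, adjusted p = 2.03e-05), and Fcer1g 89.0, 118 and 114 CPM against 319, 483 and 202 (-1.77 ± 0.18, adjusted p = 5.4e-07). Klra5, a Ly49 receptor gene, was 20.2, 25.2 and 7.61 CPM against 84.6, 133 and 113 (-2.36 ± 0.23, adjusted p = 5.4e-07), and near-identical Klra genes can share reads. Cd244a, a SLAM family receptor of NK cells, fell by 1.95 ± 0.25. The calls of the other two NK markers, Klra4 (-2.09 ± 0.28) and Klra9 (-2.14 ± 0.47), were lost without library 1 (adjusted p = 0.841 and 0.999). Over all 8 NK markers the summed level was 160 to 343 UMIs per 1000000 in Gzmk+Havcr2- cells and 373 to 1833 in Gzmk-Havcr2- cells. The defining NK marker Ncr1 was 2.89, 2.88 and 0 CPM against 49.8, 0 and 4.93. In the other list, of NK receptors and their adaptors, Klrc1 of 11 genes tested was higher and Tyrobp and Fcer1g were lower. The median log2 difference of that list was 0.07. Its summed level was 2949, 2765 and 2578 UMIs per 1000000 against 3119, 3100 and 2535.

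Of 4 gamma delta T cell markers tested, Trdc was lower and the other 3 were not called. Trdc, the constant gene of the delta receptor chain, was found in 1.90%, 3.41% and 0.813% of Gzmk+Havcr2- cells and in 12.4%, 19.0% and 2.78% of Gzmk-Havcr2- cells, without thinning. Its level was 8.09, 23.7 and 22.8 CPM against 53.6, 130 and 19.7, lower in 2 of 3 libraries (-2.33 ± 0.31, adjusted p = 2.03e-05). Over the 7 gamma delta markers the summed level was 58.7 to 106 UMIs per 1000000 against 124 to 231. When cells with a UMI of Foxp3, Trdc or Ncr1 were left out, 117 genes were called, 42 higher and 75 lower, and 88 of these were among the 177. In that fit Gzma, Eomes, Gpr183, Ccr7, Itgae, Klra5 and Tyrobp kept their calls, and those of Ifit3 (adjusted p = 0.0512), Ifit1 (0.189) and Itga1 (0.147) were lost. Foxp3, Il2ra and Cd40lg of 4 regulatory and helper CD4 markers tested were lower too, and none kept its call without library 1 (adjusted p = 0.999, 0.647 and 0.636). The summed level of the 8 B cell and plasma cell markers was 192, 125 and 104 UMIs per 1000000 against 1401, 122 and 108, and that of the 12 macrophage and dendritic cell markers 2063, 2689 and 766 against 3060, 3808 and 1062. Their part in the other differences was not tested.

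Of 14 effector transcription factor genes tested, Eomes and Hopx were higher, and Ikzf2, which encodes Helios, and Tbx21, which encodes T-bet, were lower. Ikzf2 was 57.2, 58.2 and 60.9 CPM against 153, 112 and 187 (log2 difference -1.26 ± 0.21, adjusted p = 0.000425). Tbx21 was 74.6, 76.9 and 57.1 CPM against 97.8, 132 and 104 (-0.63 ± 0.17, adjusted p = 0.0458), and its call was lost without any 1 library (adjusted p of 0.0934 to 0.919). Other genes were lower too. Lat2, an adaptor of receptor signalling, fell by 1.46 ± 0.18, the prothrombinase Fgl2 by 1.32 ± 0.22, the urokinase receptor gene Plaur by 1.61 ± 0.27, Grn, which encodes progranulin, by 1.70 ± 0.30 and Igflr1 by 1.27 ± 0.21 (adjusted p = 0.170 without library 2). Of 9 dissociation and stress genes tested, Jun, Junb, Fos and Atf3 were lower and none was higher, with a median of -0.66. The summed level of this list was 2168 to 2795 UMIs per 1000000 against 3253 to 3998.5. Without library 3 the calls of Jun (adjusted p = 0.0836), Junb (0.0828) and Atf3 (0.203) were lost, without library 1 that of Atf3 (0.0566), and without library 2 those of Fos (0.964) and Junb (1.00). The part of this list in the other differences was not tested.

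**Figure D2:**
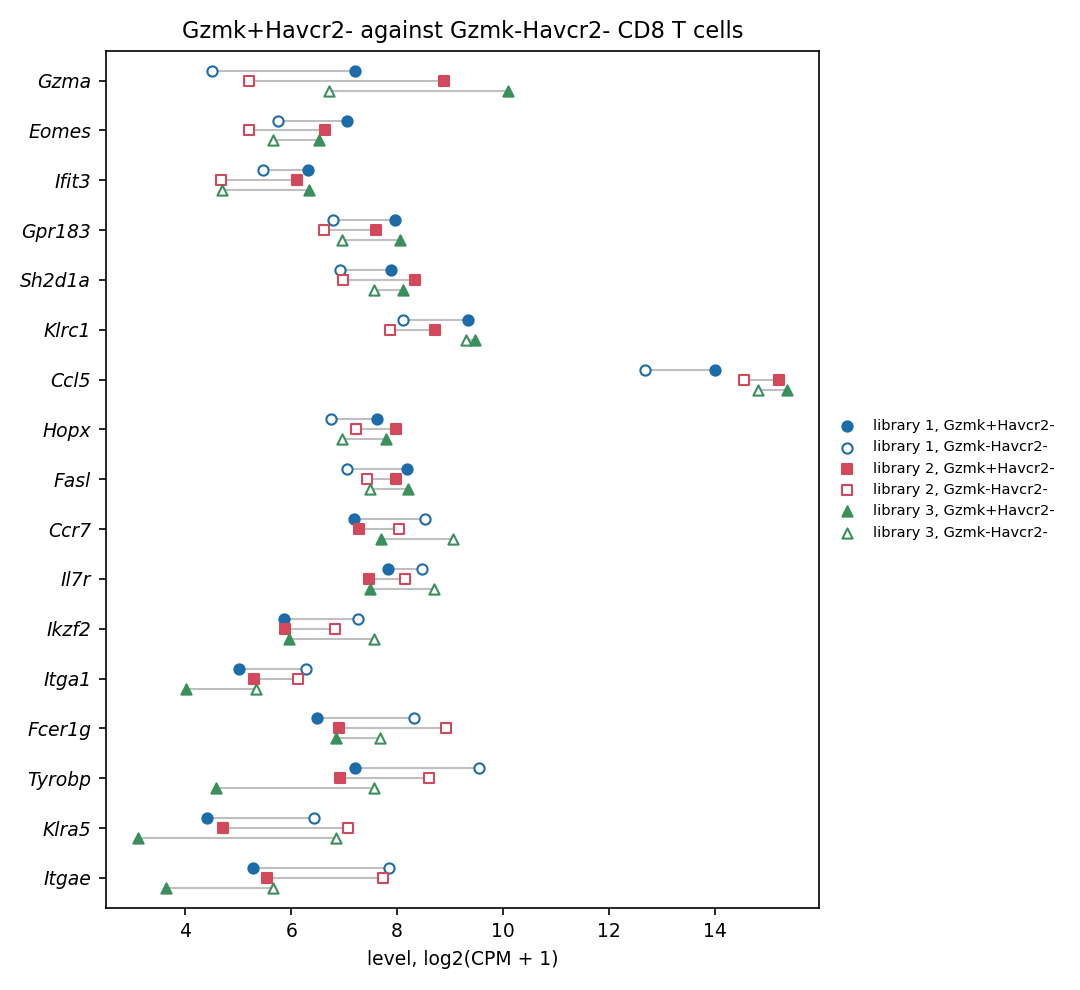
Levels of 17 genes as log2(CPM + 1) in the summed cells of each library, in Gzmk+Havcr2- CD8 T cells (filled) and Gzmk-Havcr2- CD8 T cells (open), with a line joining the groups of a library. Filled points lie to the right in all 3 libraries from Gzma to Fasl and to the left from Ccr7 to Itgae.

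To learn how the cells differed from those that also had Havcr2, they were compared with 244 Gzmk+Havcr2+ CD8 T cells (156, 79 and 9 in libraries 1 to 3). Cells without Havcr2 had more of 10 of 14 memory and recirculation genes, led by Tcf7, and less of 7 of 15 inhibitory receptor and exhaustion genes and of Ccl3, Ccl4 and Prf1. The sum of 9 cells in library 3 was below the minimum of 10 and was left out, so levels of this comparison come from libraries 1 and 2. The Havcr2+ cells were deeper, with medians of 5618 and 5834 UMIs against 4082 and 3186. Of 7341 genes tested, 286 were called (3.90%), 130 higher in the Gzmk+Havcr2- cells (1.77%) and 156 lower (2.13%), and 6 were called without the library as a block.

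Tcf7 was 107 and 99.2 CPM in Gzmk+Havcr2- cells of libraries 1 and 2 and 16.4 and 5.74 CPM in Gzmk+Havcr2+ cells. The groups did not overlap, which with 2 libraries held for 30.9% of all genes tested, and the log2 difference was 3.02 ± 0.33 (SE; adjusted p = 8.51e-07, edgeR). Klf3, a Krüppel-like factor of resting lymphocytes, was 113 and 93.5 CPM against 13.5 and 24.9 (2.53 ± 0.27, adjusted p = 8.51e-07). Il7r was 227 and 175 CPM against 47.2 and 65.0 (1.89 ± 0.25, adjusted p = 1.16e-05). Klf2 was 433 and 252 CPM against 104 and 95.6 (1.71 ± 0.19, adjusted p = 1.26e-06), and S1pr1 and Ccr7 rose by 1.90 ± 0.30 and 1.68 ± 0.22. Of 14 genes tested in the naive, memory and egress list, 10 were higher, with a median log2 difference of 1.53 beside -0.004 over all genes. Also higher were Lef1 (1.38 ± 0.31), which encodes a partner of TCF-1, the survival gene Bcl2 (1.02 ± 0.22) and the SLAM receptor gene Slamf6 (0.99 ± 0.26). Id3, an inhibitor of E proteins often linked to memory cells, went the other way, at 15.0 and 13.7 CPM against 37.5 and 32.5 (-1.30 ± 0.34, adjusted p = 0.0221).

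Tcf7, Klf3, Il7r, Klf2, S1pr1 and Ccr7 kept their calls without library 1 and without library 2. Each of those fits left 1 library with both groups and took its spread from the other groups. The call of Lef1 (adjusted p = 0.436) was lost without library 1, those of Bcl2 (0.204) and Slamf6 (0.625) without library 2, and that of Id3 without either (0.577 and 0.229). Without library 1 the log2 difference of Slamf6 was 1.75.

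Of the 3 marker genes Klrc1, Ccl5 and Hopx, Hopx alone was called. It was 195 and 252 CPM against 55.8 and 113 (log2 difference 1.49 ± 0.19, adjusted p = 6.42e-06). Klrc1 was 643 and 421 CPM against 786 and 558 in the cells with Havcr2 (-0.47 ± 0.18, adjusted p = 0.193), and Ccl5 was 16513 and 38268 CPM against 21384 and 39499 (-0.26 ± 0.16, adjusted p = 0.476). In each library the value of both was the smaller one in the cells without Havcr2, and neither was called.

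Other genes were also higher without Havcr2. Cxcr3, the receptor of interferon-induced chemokines, was 222 and 165 CPM against 69.3 and 59.3 (log2 difference 1.60 ± 0.19, adjusted p = 2.28e-06). Emb, which encodes the adhesion protein embigin, was 240 and 234 CPM against 71.2 and 82.2 (1.66 ± 0.19, adjusted p = 1.26e-06). Gramd3 rose by 1.88 ± 0.24, Ctsw, which encodes cathepsin W, by 1.18 ± 0.15, Cd226, an activating receptor, by 1.89 ± 0.36, the interferon response gene Ifit3 by 1.66 ± 0.29 and the integrin beta chain gene Itgb1 by 1.02 ± 0.22. The calls of Ctsw (adjusted p = 0.128) and Itgb1 (0.578) were lost without library 2 and that of Cd226 without library 1 (0.353). Without library 2 the log2 difference of Cd226 was 2.94.

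Of 15 inhibitory receptor and exhaustion genes tested, 7 were lower in the cells without Havcr2 and none was higher, with a median log2 difference of -0.70. Entpd1, the ectonucleotidase CD39, was 84.4 and 64.7 CPM against 309 and 163 (log2 difference -1.64 ± 0.18, adjusted p = 8.51e-07). Tnfrsf9, the costimulatory receptor 4-1BB, was 87.8 and 110 CPM against 281 and 289 (-1.55 ± 0.24, adjusted p = 0.000109). Lag3 was 442 and 321 CPM against 1040 and 535 (-1.01 ± 0.17, adjusted p = 0.000257). Rgs16, a regulator of G protein signalling, fell by 1.19 ± 0.22, the nuclear receptor gene Nr4a2 by 0.80 ± 0.14, Ctla4 by 0.70 ± 0.14 and Pdcd1 by 0.64 ± 0.17. Pdcd1 was 548 and 500 CPM against 1037 and 606, and its call was lost without library 1 (adjusted p = 0.763), 2 (0.236) or 3 (0.101). The calls of Lag3 (0.105) and Ctla4 (0.452) were lost without library 1, and those of Ctla4 (0.373) and Nr4a2 (0.445) without library 2. Tox, at 188 and 159 CPM against 320 and 201, was not called (-0.60 ± 0.18, adjusted p = 0.0515).

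Chemokine and granule genes were divided. Of 16 chemokine, chemokine receptor and retention genes tested, Cxcr3, Itgb1 and Cd69 were higher and Ccl3, Ccl4 and Cxcr6 lower, and of 13 granule and cytotoxic genes, Ctsw was higher and Prf1 and Gzmc lower. Ccl3 was 175 and 326 CPM against 906 and 1512 (log2 difference -2.33 ± 0.27, adjusted p = 1.89e-06), and Ccl4 608 and 1152 CPM against 2034 and 3677 (-1.48 ± 0.26, adjusted p = 0.000492). Both encode chemokines that attract T cells and myeloid cells. Prf1 was 134 and 132 CPM against 397 and 358 (-1.47 ± 0.22, adjusted p = 6.19e-05), and Ifng 102 and 225 CPM against 236 and 348 (-0.96 ± 0.17, adjusted p = 0.000573, and 0.142 without library 1). Cxcr6 was 636 and 409 CPM against 1370 and 700 (-0.97 ± 0.17, adjusted p = 0.000469, and 0.0675 without library 2). Gzma was 146 and 471 CPM against 177 and 130, in opposite directions in the 2 libraries, and was not called (0.86 ± 0.35, adjusted p = 0.218; without library 1 it was called, adjusted p = 6.25e-09). Gzmb, at 329 and 710 CPM against 548 and 805, was not called either (-0.21 ± 0.24, adjusted p = 0.771). Gzmc, another granzyme, was 2.31 and 2.88 CPM against 3.85 and 128, a difference that library 2 set: without it the log2 difference was 0.27 in place of -3.09 ± 0.68.

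Adgrg1, an adhesion receptor of cytotoxic cells also known as GPR56, was 23.1 and 10.8 CPM against 128 and 63.1 (log2 difference -2.50 ± 0.26, adjusted p = 3.32e-07). Cd200, a ligand of an inhibitory receptor on myeloid cells, was 84.4 and 79.1 CPM against 294 and 233 (-1.77 ± 0.20, adjusted p = 1.16e-06). Id2, which restrains E proteins in effector cells, fell by 1.15 ± 0.16, the chemerin and chemokine binding receptor gene Ccrl2 by 2.16 ± 0.26 and Cd83 by 1.91 ± 0.27. Alox5ap, which is needed for leukotriene synthesis, was 31.8 and 35.9 CPM against 92.4 and 268 (log2 difference -2.26 ± 0.32, and -1.49 without library 2). Klrd1, the CD94 partner of NKG2A, was 432 and 369 CPM against 704 and 629 (-0.77 ± 0.17, adjusted p = 0.00544, and 0.364 without library 2).

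Myeloid transcripts moved with this comparison. Of 8 macrophage and dendritic cell markers tested, 5 were lower in the cells without Havcr2 and none was higher: H2-Aa, H2-Ab1, H2-Eb1 and Cd74 of class II antigen presentation and Cst3. Over the list of 12 genes the summed level was 2063 and 2689 UMIs per 1000000 in Gzmk+Havcr2- cells of libraries 1 and 2 and 6477 and 16845 in Gzmk+Havcr2+ cells. All 12 were detected in both groups. The macrophage marker Csf1r was 4.62 and 12.2 CPM against 21.2 and 13.4. When cells with more than 1 UMI over H2-Aa, H2-Ab1 and H2-Eb1 were left out of all groups, 332 genes were called, 180 higher and 152 lower, of which 200 were among the 286. H2-DMb2, a chaperone of class II loading, fell by 2.39 ± 0.34 over all cells and had a log2 difference of -1.37 without library 2. Plbd1 fell by 1.85 ± 0.39, with no call without library 2 (adjusted p = 0.997) or library 3 (0.0565) and a log2 difference of -4.01 without library 1. With the class II cells left out, Tcf7 differed by 3.69, Entpd1, Prf1 and Ccl3 kept their calls, and those of Cd83 (adjusted p = 0.993) and Cst3 (0.932) were lost. The adaptor genes Tyrobp and Fcer1g were lower over all cells, by 1.45 ± 0.30 and 0.75 ± 0.21 (adjusted p = 0.00383 and 0.0374, edgeR). Their log2 differences were -0.59 and -0.54 without library 2, and 1.73 and 1.98 with the class II cells left out.

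**Figure D3:**
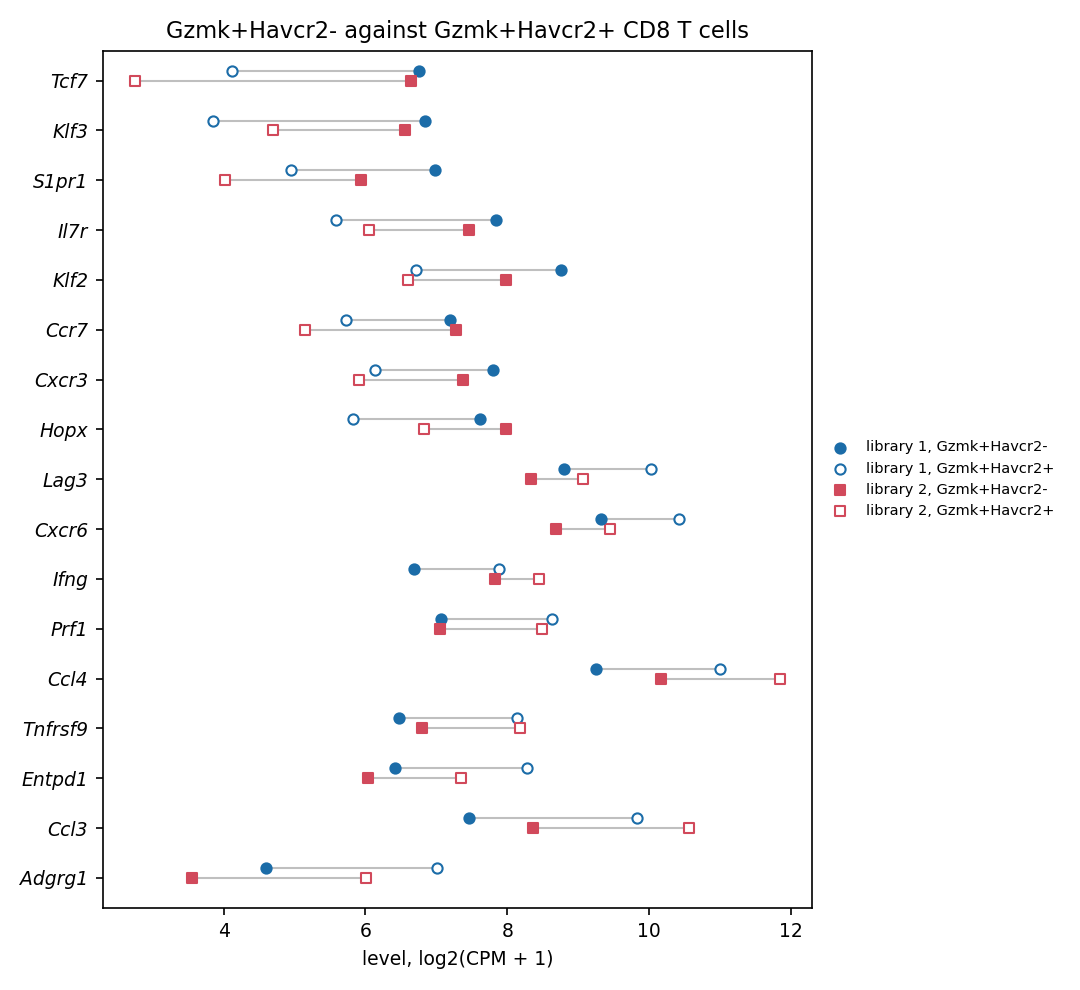
Levels of 17 genes as log2(CPM + 1) in the summed cells of libraries 1 and 2, in Gzmk+Havcr2- CD8 T cells (filled) and Gzmk+Havcr2+ CD8 T cells (open), with a line joining the groups of a library. Filled points lie to the right from Tcf7 to Hopx and to the left from Lag3 to Adgrg1 in both libraries.

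Use of the T cell receptor beta V genes differed between libraries. A Trbv UMI was found in 90.2%, 83.7% and 84.6% of Gzmk+Havcr2- CD8 T cells, and each such cell was assigned to the Trbv gene with most UMIs. Trbv19 (chr6:41178375-41179048, plus strand) led in library 1, with 32.5% of the cells (exact 95% interval 27.5 to 37.9), where it was also the leading gene of Gzmk-Havcr2- cells at 22.8% (16.6 to 30.1) and of Gzmk+Havcr2+ cells at 82.2% (75.2 to 88.0). In libraries 2 and 3, Trbv19 was used by 10.5% (7.44 to 14.2) and 9.62% (4.71 to 17.0) of the Gzmk+Havcr2- cells, and Trbv13-2 led with 15.1% and 16.3%. Over 3 libraries the Trbv19 share was 17.5% ± 13.0 (SD), and it was 10.0% without library 1. Among the Gzmk+Havcr2+ cells of library 2, Trbv5 led with 33.3% (22.0 to 46.3). V genes with near-identical copies can share reads, and no receptor sequences of single cells were used.

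In library 1 the Trbv19 cells among the Gzmk+Havcr2- cells stood apart from the rest. The 108 cells led by Trbv19 had 91.2 CPM of Il7r, 140 of Klf2, 74.8 of Tcf7 and 18.2 of Gzma. The 224 cells led by another Trbv gene had 344, 671, 144 and 206 CPM of these genes. Pdcd1 was 907 against 383 CPM, Lag3 876 against 246, Cxcr6 1069 against 468 and Klrc1 932 against 553. In library 2, the 36 Trbv19 cells also had less Il7r (65.2 against 194 CPM), Klf2 (138 against 267) and Gzma (116 against 526), but their Pdcd1 was 413 against 431 CPM, their Lag3 196 against 241 and their Klrc1 188 against 406. In library 3 there were 10 such cells. These are values of single libraries, with no test.

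The V gene moved with the comparison to Havcr2+ cells. With all cells that had a Trbv19 UMI left out of every group, 192 genes were called in that comparison, 47 higher in the Gzmk+Havcr2- cells and 145 lower, and 142 of these were among the 286. This left 24 of 156 Gzmk+Havcr2+ cells in library 1 and 69 of 79 in library 2. Tcf7, Klf3, Il7r, Klf2, S1pr1, Ccr7, Entpd1, Tnfrsf9, Prf1 and Ccl3 kept their calls, while those of Lef1 (adjusted p = 0.105), Bcl2 (0.320), Ifng (0.215), Ctla4 (0.117) and Pdcd1 (0.591) were lost. The part of the smaller number of cells in the lost calls was not tested.

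**Figure D4:**
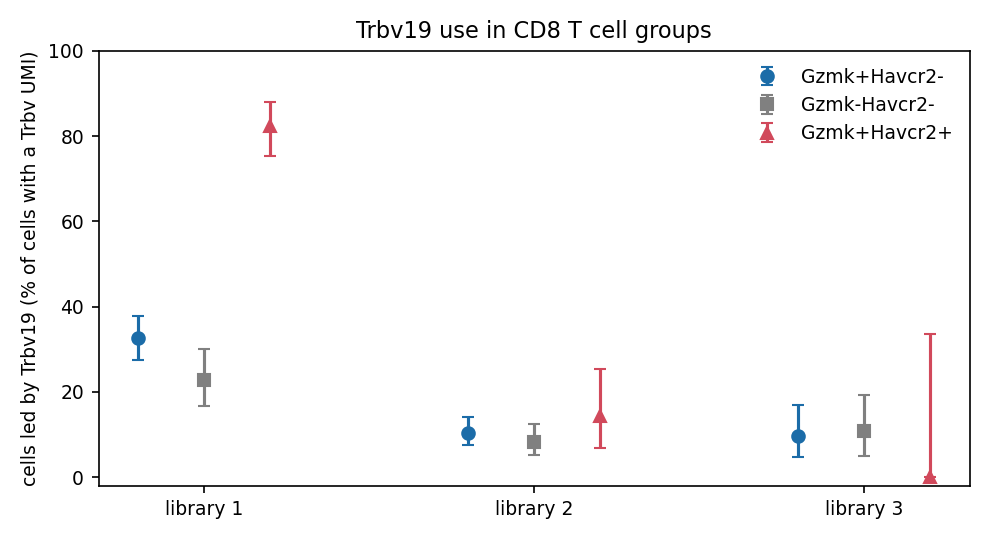
Share of cells led by Trbv19 among cells with a Trbv UMI, in percent, with exact 95% binomial intervals, in 3 groups of CD8 T cells in each library. In library 1 the Gzmk+Havcr2- cells lie at 32.5% and the Gzmk+Havcr2+ cells at 82.2%, and in libraries 2 and 3 the Gzmk+Havcr2- cells lie at 10.5% and 9.62%.

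To learn how the cells differed from CD4 T cells with Gzmk, they were compared with 243 CD4 T cells that had Gzmk and no Havcr2 (121, 107 and 15 in libraries 1 to 3). No CD4 T cells without Gzmk were compared, so what goes with Gzmk was not separated from the CD8 lineage. Gzmk was not equal in both, at 938, 948 and 1298 CPM in the CD8 cells and 468, 680 and 803 in the CD4 cells. The CD8 cells had more of 6 of 11 NK receptor genes, of 6 of 13 granule genes and of Ccl5. The CD4 cells had more of 9 of 16 cytokine and cytokine receptor genes. Of 7341 genes tested, 491 were called (6.69%), 225 higher in the CD8 cells (3.06%) and 266 lower (3.62%). Without the library as a block 92 were called, 28 higher and 64 lower. With scaling by total UMIs in place of TMM, 138 were higher and 359 lower. The CD4 sum of library 3 rested on 15 cells.

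NK receptor genes were mostly higher in the CD8 cells. Of 11 tested, 6 were higher in the CD8 cells and 1, Tyrobp, was lower, with a median log2 difference of 1.72 beside 0.03 over all genes. Klrc1 was 643, 421 and 708 CPM against 50.9, 11.0 and 156 in the CD4 cells (log2 difference 3.67 ± 0.27 SE, adjusted p = 1.85e-10, edgeR). Klrk1, which encodes the activating receptor NKG2D, was 322, 188 and 110 CPM against 18.1, 30.2 and 22.3 (3.44 ± 0.30, adjusted p = 6.36e-09). Klrd1 was 432, 369 and 327 CPM against 70.6, 126 and 44.6 (2.10 ± 0.21, adjusted p = 7.72e-08). Klre1 and Klrc2 rose by 3.73 ± 0.45 and 4.53 ± 0.54 from levels of at most 11.0 CPM in the CD4 cells, and Klrc2 is close in sequence to Klrc1, so reads can be shared. Without library 1 the log2 difference of Klre1 was 2.43. Cd160, an inhibitory and activating receptor, had 77, 74 and 9 UMIs in the CD8 cells and none in the CD4 sums, which makes it at least 14.5-fold higher if the CD4 cells are set at a floor of 3 UMIs over the group.

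Granule genes rose with them: 6 of 13 tested were higher and 2 lower. Gzma was 146, 471 and 1088 CPM against 77.1, 11.0 and 22.3 (log2 difference 2.69 ± 0.41, adjusted p = 4.11e-05), and the difference was 5.42 without library 1. Nkg7 was 2542, 3356 and 3220 CPM against 866, 1394 and 468 (1.61 ± 0.17, adjusted p = 1.25e-07), and Ctsw 822, 913 and 852 CPM against 368, 376 and 357 (1.27 ± 0.15, adjusted p = 1.24e-06). Prf1 rose by 1.51 ± 0.31, Fasl by 0.94 ± 0.19 and the granzyme B inhibitor gene Serpinb9 by 1.11 ± 0.25. The call of Prf1 was lost without library 1 (adjusted p = 0.333), while its log2 difference was 2.68 without library 2, and that of Fasl without library 2 (0.180). Gzmb was 329, 710 and 1058 CPM against 297, 499 and 112 and was not called (0.73 ± 0.24, adjusted p = 0.0738), but it was called without library 1 (adjusted p = 1.38e-05) or library 2 (0.0179).

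Ccl5 was 16513, 38268 and 42114 CPM against 3077, 8471 and 7786 (log2 difference 2.33 ± 0.15, adjusted p = 1.86e-11). Eomes was 131, 98.5 and 91.3 CPM against 27.9, 0 and 0 (2.86 ± 0.35, adjusted p = 1.69e-06), and Hopx 195, 252 and 221 CPM against 50.9, 96.0 and 44.6 (1.70 ± 0.20, adjusted p = 1.2e-06). Cd7, a T and NK cell surface protein, was 318, 481 and 377 CPM against 57.4, 30.2 and 0 (3.06 ± 0.27, adjusted p = 6.36e-09), and the lipid receptor gene Gpr18 195, 165 and 175 CPM against 57.4, 8.23 and 0 (2.30 ± 0.32, adjusted p = 1.1e-05). None of these 5 genes overlapped between the groups, which held for 12.1% of all genes tested. Without library 1 the fitted difference of Gpr18 was 4.41 and that of Eomes 8.79, the latter against CD4 sums that were both at 0. Of 16 chemokine, chemokine receptor and retention genes, Ccl5 and Itga1 were higher, Cxcr3 and Cxcr4 lower, and Ccl4 (0.56, adjusted p = 0.257) and Ccl3 (0.13, adjusted p = 0.908) not called. Nr4a2 rose by 1.61 ± 0.16. Pdcd1 was 548, 500 and 628 CPM against 417, 228 and 424 (0.68 ± 0.18, adjusted p = 0.0183), and its call was lost without library 2 (0.665) or library 3 (0.0722). Tcf7, at 107, 99.2 and 72.3 CPM against 55.8, 87.8 and 89.2, was not called (0.53 ± 0.25, adjusted p = 0.281). In the naive, memory and egress list, Ccr7 and Il7r were lower and none of 14 genes tested was higher, with a median of 0.08. Ccr7 was 145, 154 and 206 CPM against 246, 269 and 558 (-0.89 ± 0.17, adjusted p = 0.00102, edgeR).

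Cd40lg and several cytokine genes were lower in the CD8 cells. Cd40lg, the ligand by which helper cells activate B cells, was 4.05, 5.03 and 0 CPM against 143, 126 and 178 (log2 difference -5.02 ± 0.34, adjusted p = 8.78e-11). Il21, a helper cytokine, was 4.05, 1.44 and 0 CPM against 34.5, 107 and 22.3 (-4.44 ± 0.59, adjusted p = 4.97e-06). Il10, a regulatory cytokine, was 8.09, 8.63 and 7.61 CPM against 144, 181 and 22.3 (-4.14 ± 0.32, adjusted p = 7.98e-10). Among 16 cytokine and cytokine receptor genes, 9 were lower and 1, Il18rap, was higher. Ifng was 102, 225 and 167 CPM against 153, 348 and 379 (-0.69 ± 0.17, adjusted p = 0.0132), and its call was lost without library 2 (0.261) or library 3 (0.0668).

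Other genes were also lower in the CD8 cells. Tnfrsf4, which encodes OX40, was 79.8, 87.7 and 95.1 CPM against 1034, 815 and 937 (log2 difference -3.43 ± 0.25, adjusted p = 1.85e-10). Tnfsf11, which encodes RANKL, was 20.8, 6.47 and 3.81 CPM against 143, 162 and 357 (-3.64 ± 0.31, adjusted p = 4.02e-09). Izumo1r, the folate receptor 4 of helper and regulatory cells, was 36.4, 42.4 and 38.1 CPM against 414, 540 and 513 (-3.61 ± 0.20, adjusted p = 2.77e-12). Tnfsf8 fell by 3.54 ± 0.37, Gpm6b by 3.51 ± 0.38, Socs2, an inhibitor of cytokine signalling, by 3.59 ± 0.32, and the chemokine receptor gene Ccr8 by 2.97 ± 0.28. Maf, a transcription factor of Il10 and Il21 producing helper cells, was 51.4, 59.0 and 129 CPM against 354, 392 and 312 (-2.51 ± 0.22, adjusted p = 6.54e-09). Ctla4 fell by 1.53 ± 0.13, Cd5 by 1.53 ± 0.19 and Lag3 by 0.77 ± 0.16, the last with no call without library 2 (adjusted p = 0.428).

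Part of the CD4 group carried regulatory T cell transcripts. Of 4 regulatory and helper CD4 markers tested, Foxp3, Il2ra and Cd40lg were lower in the CD8 cells, with a median log2 difference of -2.55 over the 4. Foxp3, the defining factor of those cells, was found in 28.9% and 7.48% of the CD4 cells of libraries 1 and 2 and in 0 of 15 in library 3, which allows a share of up to 20.0%. It was found in 4.08%, 1.95% and 1.63% of the CD8 cells (all without thinning). Foxp3 itself was 14.4, 15.1 and 7.61 CPM against 148, 49.4 and 0 (log2 difference -2.67 ± 0.32, adjusted p = 1.2e-06, and 0.295 without library 1). Over the 6 regulatory and helper CD4 markers the summed level was 55.2 to 65.3 UMIs per 1000000 in the CD8 cells and 267 to 489 in the CD4 cells. Without cells that had a Foxp3, Trdc or Ncr1 UMI, 364 genes were called, 326 of them among the 491, and Il10, Il21, Cd40lg, Tnfrsf4, Ctla4 and Klrc1 kept their calls. Jun and Junb of 9 dissociation and stress genes tested were lower in the CD8 cells, and none was higher. The list summed to 2795, 2738 and 2168 UMIs per 1000000 against 4344, 4285 and 4383. Cst3 and Cd209a of 8 macrophage and dendritic cell markers tested were lower, and none was higher. That list of 12 genes summed to 2063, 2689 and 766 against 3543, 4745 and 481. The part of both lists in the other differences was not tested.

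Ribosomal protein genes were higher in the CD8 cells as a group. Of 77 tested, 38 were called higher and none lower, with a median log2 difference of 0.37. Their share of all UMIs, which uses no TMM scaling, was 25.2%, 27.0% and 29.3% against 20.6%, 24.7% and 27.2%. In the comparisons with Gzmk-Havcr2- and Gzmk+Havcr2+ CD8 T cells the medians were -0.03 and 0.12, with none and 1 called higher. With scaling by total UMIs in place of TMM, the median of all genes in the CD4 comparison shifted by -0.12.

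**Figure D5:**
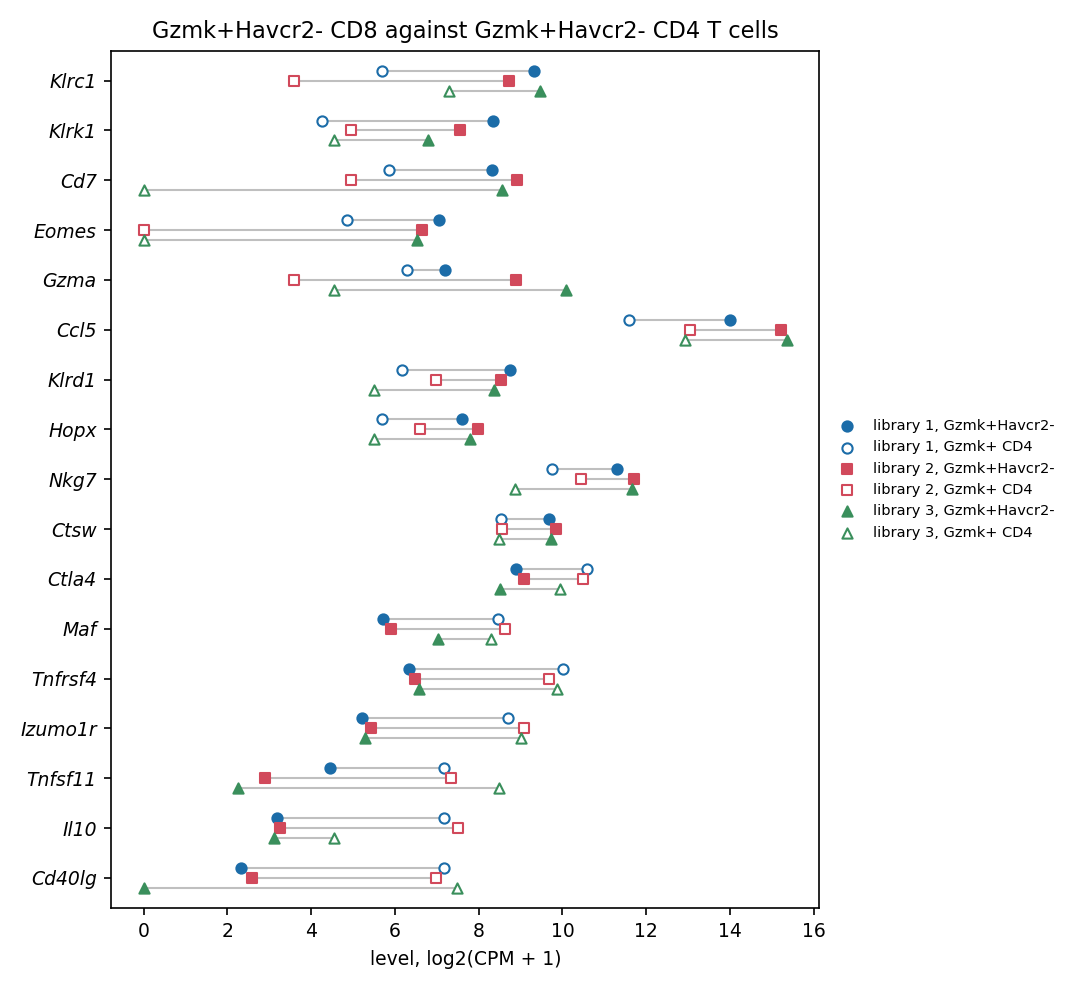
Levels of 17 genes as log2(CPM + 1) in the summed cells of each library, in Gzmk+Havcr2- CD8 T cells (filled) and Gzmk+Havcr2- CD4 T cells (open), with a line joining the groups of a library. Filled points lie to the right in all 3 libraries from Klrc1 to Ctsw and to the left from Ctla4 to Cd40lg, and a value of 0 is a gene with no UMI in that sum.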

How the data were processed

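Single-cell UMI counts per gene and cell were deposited by the authors as 1 matrix per library (10x Genomics, CD45+ sciatic nerve cells). The matrices name Cell Ranger 5.0.1 (library 1) and 6.1.2 (libraries 2 and 3), and the submitters' processing notes give the mm10 build. Each matrix held 32285 gene rows. Library 1 had no gene list among the files used here and took the row order of the others, which were identical. In that order, gene totals of library 1 correlated with those of libraries 2 and 3 at a rank correlation of 0.950 and 0.929, and at 0.362 and 0.321 when shifted by 1 row.

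Cells with more than 5000 genes or over 20% mitochondrial UMIs were left out, and every remaining cell had more than 300 UMIs. No doublet caller was run. The cell definition, the gene lists and the comparisons were chosen with earlier results of these data known. UMIs were summed per library and cell group, and sums of fewer than 10 cells were left out. All 11 sums entered 1 fit with edgeR 4.0.16 in R 4.3.3 (quasi-likelihood test, TMM scaling, filterByExpr, library as a block, Benjamini-Hochberg adjustment over 7341 genes, 0.05). Genes of the definition and mitochondrial genes were not tested. CPM are the deposited counts scaled per 1000000 with TMM, except in the paragraphs on Gzmk UMI classes and on Trbv19 cells, where they are UMIs per 1000000. The library pairs the sums, since they came from the same mice: deviations of same-library sums correlated at 0.14 to 0.58 over 15 pairs. Simulated data had 200 changed genes, 100 of them at fold 2, drawn only from genes with higher mean UMIs per sum. The fit recovered 88% of the changes of fold 2 in the comparison with Gzmk-Havcr2- cells, 78% with Gzmk+Havcr2+ cells and 62% with CD4 cells. Recovery was not measured for genes with few UMIs. Of the simulated calls, 7.84%, 6.81% and 5.29% were false.

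Named were genes of the lists and, per comparison and direction, the 8 largest called differences with 1 sign in every library and a mean of at least 50 CPM, leaving out ribosomal, antigen receptor, unnamed (Gm, Rik) and other-cell-type genes. Alternatives were another scaling (RLE or total UMIs), DESeq2 1.42.0, no filter, no block, only the groups compared, each library left out, thinning to 1000 UMIs, and other limits on cells. Trbv genes were described with exact binomial 95% intervals. Sequences came from RefSeq (GRCm38.p6) and positions from GENCODE. No entry for Ccl5 or Klrd1 was used.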

Additional observations from a re-analysis of the deposited data

How the results depend on the processing

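In the comparison with Gzmk-Havcr2- CD8 T cells (177 called), DESeq2 called 66, no filter on low counts 328, the fit without the replicate block 2, the fit of only the 2 groups compared 339, the fit of thinned cells 47 and the fit without cells with Foxp3, Trdc or Ncr1 UMIs 117. Of the 47 genes called with thinned cells, 23 were among the 177. Leaving out 1 library gave 99 to 128. In the comparison with Gzmk+Havcr2+ CD8 T cells (286), DESeq2 called 149, no block 6, only the 2 groups 591 and all Havcr2-positive cells with or without Gzmk 449, the last with 13 such cells of library 3 added. Leaving out 1 library gave 119 to 284, and without library 1 or 2 a single library held both groups. In the comparison with CD4 T cells (491), no block called 92, thinned cells 164 and at least 2 Gzmk UMIs 282, both without library 3, where 7 CD4 cells remained, and leaving out 1 library gave 203 to 443. Alternatives chosen after seeing the data were the fits without Foxp3, Trdc or Ncr1, Trbv19 or class II cells, and sums of at least 5 cells. Thinning also left 8 and 5 Gzmk+Havcr2+ cells in libraries 2 and 3, below the minimum, so that arm was library 1 alone and took its spread from the other groups. The share of calls that were higher moved from 45.5% to 57.7% in the Havcr2 comparison and from 45.8% to 67.7% in the CD4 comparison with thinned cells and these sums left out, to 24.5% in the former without Trbv19 cells and to 27.8% in the latter with scaling by total UMIs. Of the 286 genes, 54 were called with thinned cells, where 2906 genes could be tested.

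Without the block, 1 of 52, 4 of 59 and 27 of 44 named genes that were called kept their calls in the 3 comparisons. Over all named genes and alternatives (2942 values), 2446 stayed on their side of the threshold, 447 lost the call and 36 gained one. Among the 2446, 19 values that were not called changed sign, 9, 8 and 2 in the 3 comparisons. A called value reversed 13 times, all in the Havcr2 comparison. Thinned cells, with 1 library in the Havcr2+ arm, reversed Fcer1g (4.52), Cst3 (0.27), Tyrobp (0.042), Itgb1 (-0.18), H2-Ab1 (0.82), H2-Aa (0.74), H2-Eb1 (1.65) and Cd74 (0.67). Leaving out cells with class II UMIs reversed Fcer1g (1.98), Tyrobp (1.73), H2-Eb1 (0.78) and Cd74 (0.018). The second leaves out cells by their class II UMIs. The cause of the other reversals was not tested. Gzmc ranged from -4.30 to 0.27 on leaving out 1 library, and reversed without library 2.

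The share of Gzmk+Havcr2- cells among CD8 T cells was 35.5% with thinned cells against 47.6% and 46.2% to 48.9% without 1 library. The median share of cells with a UMI over the listed genes was 5.47%, 13.0% without thinning and 4.64% to 5.66% without 1 library. The Trbv19 share was 10.0% to 21.5% without 1 library. Library 3, with a median of 1726 UMIs per cell, limited what could be detected. A minimum of 300 UMIs changed nothing, as all cells had more.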
